A study of Homo sapiens with 6 samples.

Results

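Intermediate filaments are ropes of coiled-coil proteins that give cells and nuclei their mechanical strength. Keratins assemble as obligate pairs of a type I and a type II chain in epithelial cells, vimentin (type III) forms homopolymers in mesenchymal and cultured cells, nestin and the neurofilament chains (type IV) are typical of neural cells and their progenitors, and lamins (type V) line the inside of the nuclear envelope. Their long-lived proteins are rich in arginine and lysine, residues that methylglyoxal (MGO), a reactive by-product of glycolysis, modifies by glycation. The genes described here are 10 of the 63643 rows of the count table, taken by symbol: the type I keratins KRT10, KRT17, KRT18 and KRT19, the type II keratin KRT8, the type III gene VIM, the type IV genes NES and NEFL, and the lamin genes LMNA and LMNB1. All 10 had enough counts to be tested.

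Polyadenylated RNA was sequenced from HEK293T, an established human embryonic kidney line, after deletion of GLO1, the first enzyme of the glyoxalase route that clears MGO. Both groups carry this deletion: 3 libraries came from cells given 60 µM MGO for 4 h (MGO) and 3 from untreated cells (Control), and the study asked whether MGO changes transcripts of the integrated stress response. The labels name no vehicle treatment of the Control cells. They also leave unsaid whether the deleted line is a single clone and whether replicates are separate cultures. The p-values therefore rest on a spread among libraries that may be technical.

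Total counts ran from 117427883 to 157639431 per library. GLO1, the gene labelled as deleted in both groups, had 37.6, 36.3 and 38.0 CPM in Control and 106, 102 and 97.3 CPM in MGO (log2 fold change 1.45, SE 0.06, adjusted p = 5.6e-10). Since the deleted part is not given, these reads check neither the deletion nor the groups. All 5 embryonic kidney markers of the line were detected (1 raised after MGO and 2, PAX2 and CDH2, lowered). The response was broad: of 23109 genes tested, 79.3% passed an adjusted p of 0.05 in edgeR's quasi-likelihood test, 38.8% raised and 40.5% lowered, and in 81.5% the 2 groups of libraries did not overlap. Changes also followed transcript length across all genes, as given below. Scaling by library size alone shifted the median log2 fold change of all genes by −0.52 and upper quartile scaling shifted it by 0.17. Raised genes made up 48.9% of the calls under the TMM scaling used here, 30.6% under library size alone and 54.9% under upper quartile scaling.

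After MGO, transcripts of all 5 keratins, of VIM and of LMNA rose, and those of NES, NEFL and LMNB1 fell. KRT17 rose 4.14-fold and NES fell 4.63-fold, with the other 8 genes between them. Thus 7 of 10 were raised and 3 lowered, where 38.8% of all genes tested were raised and 40.5% lowered. These shares differed with transcript length among genes with a mean of at least 1 CPM. At 1000 to 1500 nt, the class of KRT19, 76.0% were raised. At 1500 to 2500 nt, the class of the other raised genes and of LMNB1, 59.9% were raised and 25.3% lowered. Lowered genes made up 51.5% at 2500 to 4000 nt (NEFL) and 75.9% at 4000 to 6000 nt (NES). In each of the 10 genes the groups did not overlap, as in 81.5% of all genes tested. The 10 genes had a median log2 fold change of 1.197, against −0.02 over all genes tested. This median was 0.67 under library size alone and 0.85 once the trend on transcript length was removed. Levels below are CPM, counts scaled to the TMM-adjusted library total, and in bulk RNA fewer cells of a type and less RNA per cell cannot be told apart.

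**Figure D1:**
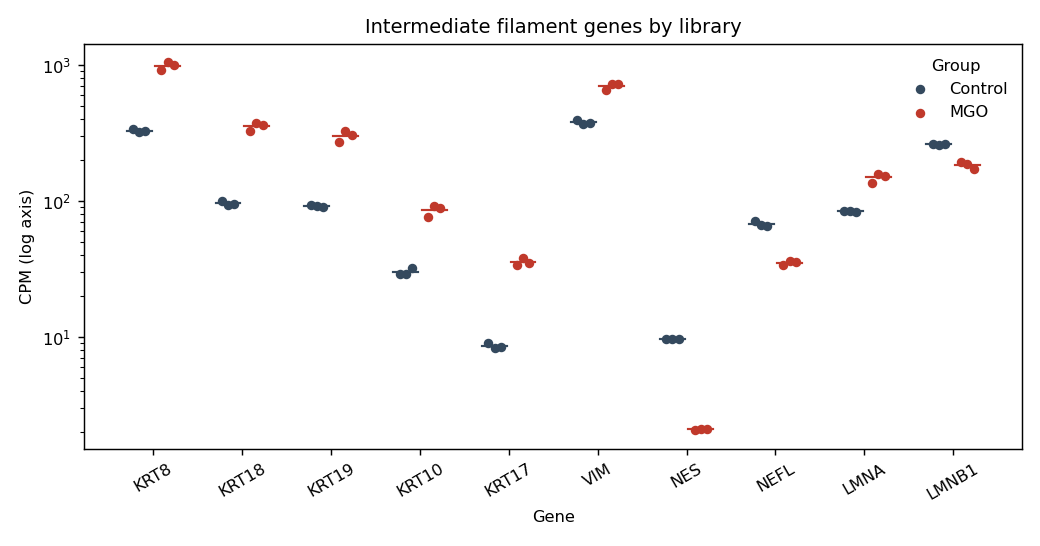
CPM of the 10 genes in each library on a log axis, Control libraries in dark blue and MGO libraries in red, with a short line at each group mean (n = 3). The groups are apart in all 10 genes, MGO being higher in the keratins, VIM and LMNA and lower in NES, NEFL and LMNB1.

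KRT8 and KRT18 form the keratin pair of simple epithelia, the first to appear in development, and lie beside each other on chromosome 12 (KRT8 at 52897187 to 52949954 on the minus strand, KRT18 at 52948871 to 52952901 on the plus strand, GRCh38). KRT8 stood at 336, 321 and 328 CPM in Control replicates 1 to 3 and at 908, 1041 and 994 CPM in MGO replicates 1 to 3. It was the most abundant of the 10 genes after MGO, and its lowest MGO library was still above its highest Control library. Its log2 fold change was 1.58 (SE 0.07, adjusted p = 6.14e-10). KRT18 had 99.6, 93.2 and 94.8 CPM in Control and 323.5, 372 and 359 CPM in MGO (log2 fold change 1.87, SE 0.07, adjusted p = 2.21e-10). KRT8 and KRT18 thus rose together, KRT18 by the larger factor. Within a library, which takes scaling out of the comparison, there were 3.37, 3.45 and 3.46 KRT8 counts per KRT18 count in Control and 2.81, 2.80 and 2.77 in MGO. The ratio was lower in all 3 MGO libraries, by 0.30 on the log2 scale. Over the samples the exact two-sided permutation test gave p = 0.10, the smallest that 3 against 3 allows, and 0.10 adjusted over the 4 ratios tested.

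Reads of both genes could be shared with other features. The annotated exons of KRT8 and KRT18 overlap on opposite strands by 525 bases, and the table holds 51 rows of KRT8 pseudogenes and 67 of KRT18 pseudogenes. The kit marks strand, but no source used here gives the strand setting of the counting or says what was done with reads matching more than 1 place. KRT10 likewise shares 56 exonic bases with TMEM99, and NEFL 490 with an antisense gene. The pseudogene rows together held 1.83% to 2.43% as many counts as KRT8 and 1.31% to 2.35% as many as KRT18. Adding them to their parent gene gave log2 fold changes of 1.57 for KRT8 and 1.87 for KRT18. Of 22 pseudogene rows tested, 18 were raised and 3 lowered, and those with a mean of at least 1 CPM were KRT8P3 (1.419), KRT8P12 (0.55), KRT8P33 (1.85) and KRT8P36 (2.29). KRT8P12 turned to −0.15 when the length trend was taken out, and by library size it stood at 0.02 (adjusted p = 0.819). Whether these rows count reads of KRT8 itself was not tested.

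The other 3 keratins lie in the type I cluster of chromosome 17. KRT19 (41523617 to 41528308), the smallest keratin, which lacks the usual tail domain, had 92.8, 90.9 and 89.9 CPM in Control and 272.5, 326 and 303 CPM in MGO. Its log2 fold change was 1.72 (SE 0.07, adjusted p = 5.39e-10). KRT17 (41619441 to 41624842), known as a keratin of skin appendages and of wounded epidermis, had 9.04, 8.30 and 8.40 CPM in Control and 33.7, 37.9 and 35.1 CPM in MGO. It had the largest rise of the 10 genes (log2 fold change 2.05, SE 0.07, adjusted p = 1.71e-10) at the lowest Control level of the keratins described here. KRT10 (40818117 to 40822595), a keratin of differentiating epidermis, had 28.9, 29.1 and 31.98 CPM in Control and 75.4, 91.6 and 87.8 CPM in MGO (log2 fold change 1.501, SE 0.08, adjusted p = 3.7e-09). In all 5 keratins MGO replicate 1 was the lowest of the 3 MGO libraries, as it was in VIM, NES, NEFL and LMNA. In LMNB1 it was the highest.

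No other keratin came near these levels. The table holds 63 further rows named as keratins, 13 of them with a symbol ending in P. Of the 63, 24 had no count in any library and 33 had too few to test. Of the 6 tested, 5 were raised and 1 lowered (median log2 fold change 1.29), each at a mean of 1.02 CPM or less. KRT80, the highest of them, had 0.865 ± 0.0939 CPM in Control and 1.18 ± 0.116 CPM in MGO (SD, n = 3). Its log2 fold change was 0.44 (SE 0.14, adjusted p = 0.0134), a call that ended without MGO replicate 3 (adjusted p = 0.0571) and turned to −0.08 under library size alone. KRT7, KRT13, KRT15 and KRT75, named after their values were seen, were the other raised keratins, each below 1 CPM in both groups. KRT7, with 2 to 17 counts per library, did not pass without the length trend (adjusted p = 0.139 in edgeR's test). KRT222 fell from 0.742 ± 0.0261 to 0.402 ± 0.0664 CPM. Of the type II keratins, KRT8 thus stood far above the others tested (KRT7, KRT75 and KRT80).

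VIM (chromosome 10, 17228259 to 17237593) encodes vimentin, the main cytoplasmic filament of most cultured cells. It had 395, 365 and 370 CPM in Control and 657, 719 and 722 CPM in MGO. All MGO libraries were above all Control libraries, with a smaller rise than in any of the 5 keratins (log2 fold change 0.89, SE 0.07, adjusted p = 6.71e-08). KRT18 counts were 0.252, 0.255 and 0.256 of the VIM counts in Control and 0.493, 0.517 and 0.498 in MGO, a rise of the ratio by 0.98 on the log2 scale (exact two-sided permutation p = 0.10, the smallest possible). The exons of VIM share 641 bases with the antisense gene VIM-AS1. VIM-AS1 was at 2.20 ± 0.327 CPM in Control and 2.04 ± 0.0717 CPM in MGO (log2 fold change −0.10, adjusted p = 0.46), far below VIM.

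NES (chromosome 1, 156668763 to 156677397) encodes nestin, a large type IV chain that copolymerises with vimentin in progenitor cells. It had 9.65, 9.66 and 9.65 CPM in Control and 2.05, 2.09 and 2.11 CPM in MGO, from 226 to 242 counts in each MGO library. The libraries within each group lay close together and the groups were far apart, with a log2 fold change of −2.21 (SE 0.08, adjusted p = 1.99e-10). NES and its partner VIM moved in opposite directions. For each VIM count there were 0.0244, 0.0265 and 0.0261 NES counts in Control and 0.00313, 0.00290 and 0.00293 in MGO. The within-library ratio thus fell by 3.10 on the log2 scale (exact two-sided permutation p = 0.10, the smallest possible). NES and VIM differ in transcript length (5558 and 1868 nt), and this ratio does not take the length trend out. With that trend removed, NES stood at −1.15 and VIM at 0.52. NEFL (chromosome 8, 24950955 to 24957110), the light chain on which neurofilaments are built, had 70.8, 66.2 and 65.7 CPM in Control and 33.9, 36.2 and 35.2 CPM in MGO. It fell 1.93-fold (log2 fold change −0.94, SE 0.06, adjusted p = 2.35e-08).

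LMNA (chromosome 1, 156082573 to 156140089), which gives lamins A and C by alternative splicing, and LMNB1 (chromosome 5, 126776623 to 126837020), which encodes the permanently farnesylated lamin B1, also moved apart. LMNA had 83.6, 84.7 and 82.4 CPM in Control and 135, 158.1 and 152 CPM in MGO (log2 fold change 0.83, SE 0.07, adjusted p = 2.06e-07). Gene-level counts do not separate lamin A from lamin C. LMNB1 had 261, 258 and 260 CPM in Control and 193, 185 and 172 CPM in MGO (log2 fold change −0.50, SE 0.06, adjusted p = 1.08e-05), the smallest change of the 10 genes under TMM scaling. By library size LMNA (0.30) and VIM (0.36) changed less than LMNB1 (−1.03), and without the length trend VIM, LMNA and NEFL did. For each LMNB1 count there were 0.320, 0.329 and 0.317 LMNA counts in Control and 0.700, 0.855 and 0.885 in MGO. This ratio rose by 1.33 on the log2 scale (exact two-sided permutation p = 0.10, the smallest possible), and MGO replicate 1 stood apart from the other MGO libraries toward Control. Of the 10 genes, LMNA and LMNB1 are the closest in transcript length among those that moved in opposite directions, with 2134 and 2225 nt. LMNB1-DT, a noncoding gene named as the divergent transcript of LMNB1 and chosen after its values were seen, went from 0.597 ± 0.0628 to 0.253 ± 0.0687 CPM (log2 fold change −1.24, adjusted p = 0.000206).

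**Figure D2:**
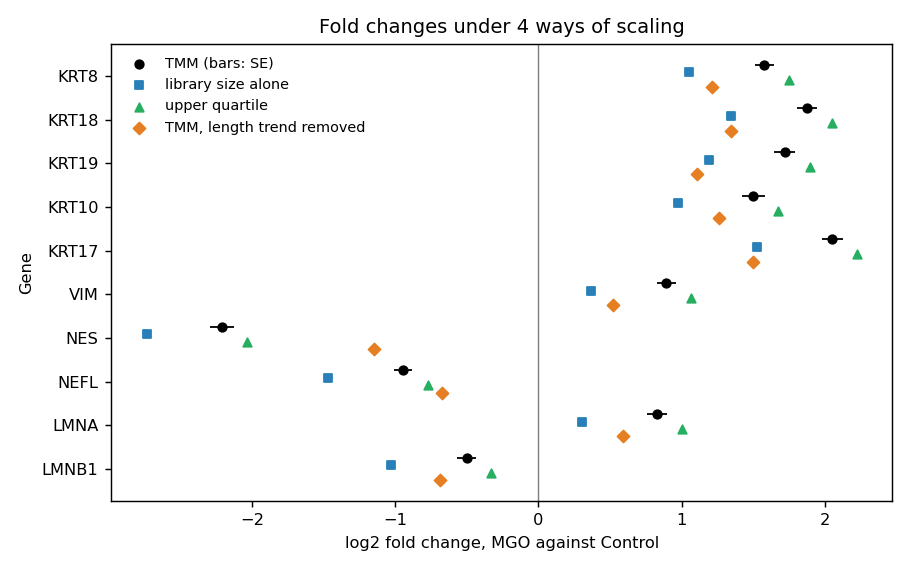
Log2 fold changes (MGO against Control, x axis) of the 10 genes under TMM scaling (black, bars are SE), library size alone (blue), upper quartile scaling (green) and TMM with the length trend removed (orange). No marker crosses 0, although VIM and LMNA come down to 0.36 and 0.30 under library size alone.

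Levels of different genes can be compared only per transcript length, here as CPM per kb of the median GENCODE transcript. In Control the order was VIM (202 ± 8.58 CPM per kb), KRT8 (174.5 ± 3.86), LMNB1 (116.7 ± 0.864), KRT19 (65.6 ± 1.03), KRT18 (61.4 ± 2.12), LMNA (39.2 ± 0.550), NEFL (21.1 ± 0.874), KRT10 (14.1 ± 0.802), KRT17 (5.66 ± 0.263) and NES (1.74 ± 0.00123; SD, n = 3 for each). In MGO, KRT8 came first (521 ± 36.0 CPM per kb), ahead of VIM (374 ± 19.7). KRT18 (225 ± 16.1) and KRT19 (216 ± 19.4) came next and overlapped each other. LMNB1 (82.4 ± 4.93) and LMNA (69.6 ± 5.52) followed without overlap, then KRT10 (40.0 ± 3.99), KRT17 (23.4 ± 1.38), NEFL (10.9 ± 0.362) and NES (0.375 ± 0.00518). The sum of the 10 genes was 702 ± 16.7 CPM per kb in Control and 1564 ± 98.1 in MGO. Keratins made up 45.6%, 45.8% and 46.0% of it in the Control libraries and 64.8%, 66.4% and 65.6% in the MGO libraries. Over the same libraries the share of LMNB1 went from 16.6% to 5.29%, that of VIM from 28.7% to 24.0% and that of KRT8 from 24.9% to 33.3% (group means). These shares are within the 10 genes and do not depend on the scaling between libraries.

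**Figure D3:**
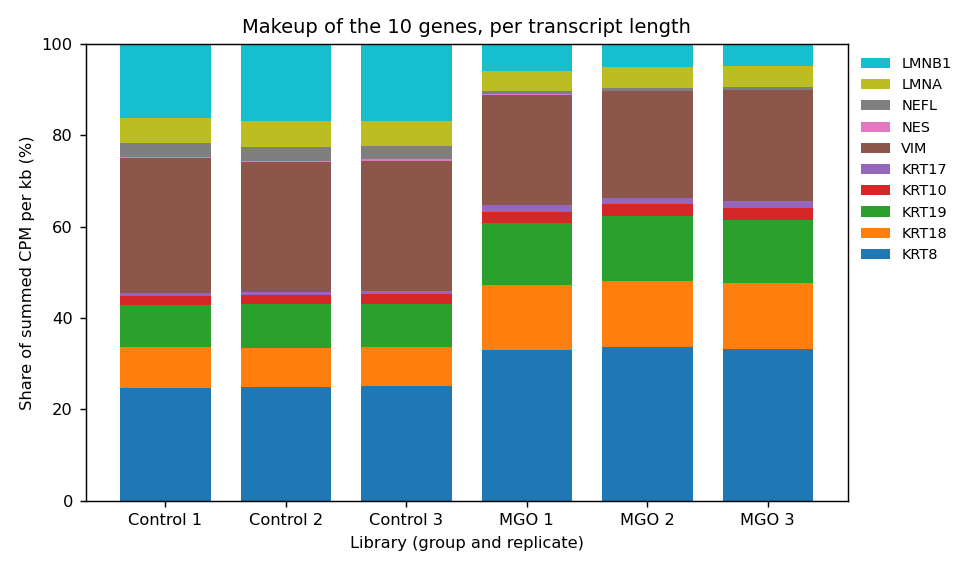
Share of each gene in the summed CPM per kb of the 10 genes (y axis, %), 1 bar per library. The 5 keratins at the bottom of each bar take 45.6% to 46.0% in Control and 64.8% to 66.4% in MGO.

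Transcript length moved with these changes. Across the 13892 genes with a mean of at least 1 CPM and an annotated length, Spearman's rho of log2 fold change on length was −0.58, and across the 10 genes it was −0.93 (all from the same 6 libraries). The keratin transcripts have 1390 to 2124 nt, VIM 1868, NEFL 3205 and NES 5558 nt. Genes of 1500 to 2500 nt had a median log2 fold change of 0.42 (quartiles −0.22 and 0.95, n = 3873), and genes of 4000 to 6000 nt a median of −0.89 (quartiles −1.52 and −0.22, n = 2005). All 5 keratins lay above the interquartile range of the genes in their own length class. NES, NEFL and LMNB1 lay below that of theirs, and VIM and LMNA within it. With the trend of each library on length removed, the log2 fold changes were 1.501 for KRT17, 1.35 for KRT18, 1.26 for KRT10, 1.21 for KRT8, 1.11 for KRT19, 0.59 for LMNA, 0.52 for VIM, −0.67 for NEFL, −0.69 for LMNB1 and −1.15 for NES. All 10 passed an adjusted p of 0.05 in edgeR's test after this removal. A small trend was left, with a rho of −0.06 across the same 13892 genes. Class medians were then 0.21 at 1000 to 1500 nt, 0.11 at 1500 to 2500 nt and −0.03 at 4000 to 6000 nt. What part of each change goes with length was not tested further.

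**Figure D4:**
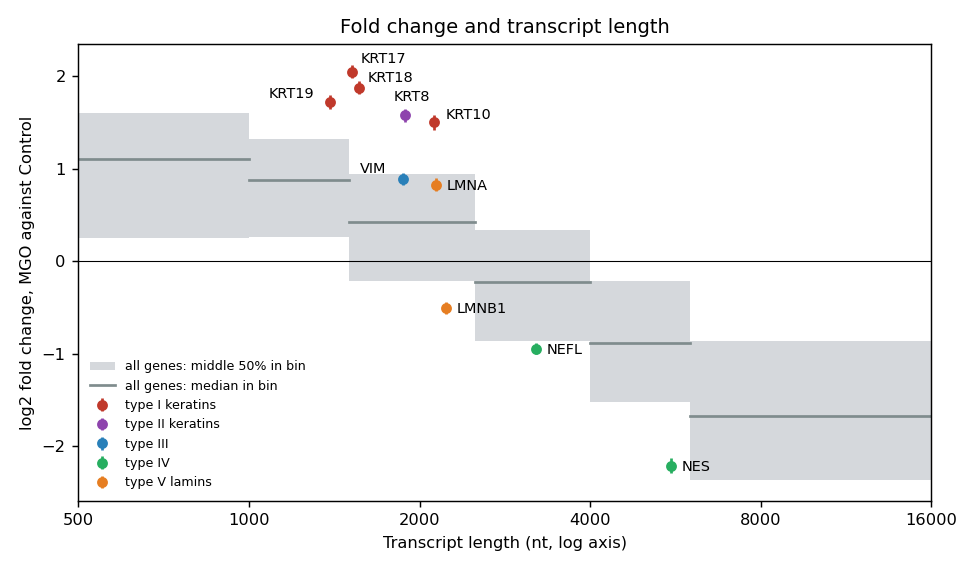
Log2 fold change (y axis, points with SE bars) against transcript length (x axis, nt, log scale) for the 10 genes, coloured by filament type, over the interquartile range (grey boxes) and median (grey lines) of all genes with a mean of at least 1 CPM in 6 length classes, the outermost drawn to the edge of the plot. The keratins lie above the boxes and NES, NEFL and LMNB1 below, while VIM and LMNA lie inside.

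LMNA and NES lie 528.7 kb apart on chromosome 1 and changed in opposite directions, while the adjacent KRT8 and KRT18 rose together. Windows were taken from the RefSeq promoter table (GRCh38.p14) for 6 of the 10 genes (KRT8, KRT10, VIM, NES, LMNA and LMNB1). KRT17, KRT18 and KRT19 had no entry in it. NEFL was left out of the search, so its lack of a window says nothing of the table. The table holds 3 starts for LMNA and 2 for LMNB1, of which the one nearest the outer end of the annotated gene was used. The single KRT8 start in the table lies well inside the span annotated for KRT8, so it is one of the possible starts of that gene. For KRT10, VIM and NES the first bases after the RefSeq start were found in no GENCODE transcript of the gene. Distances given for these genes hold for the RefSeq start only. The 250 bases before each start used were searched on both strands for the GC box GGGCGG, the CCAAT box CCAAT, the TATA box TATAAA, the AP-1 motif TGANTCA and the CArG box. Shown are KRT8, the most abundant keratin, and KRT10, the only other keratin with a window. The neighbours LMNA and NES, which changed in opposite directions, are shown as well. Matches are in capitals and 5′ to 3′ along each gene.

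KRT8 (chr12:52926470-52926719, minus strand): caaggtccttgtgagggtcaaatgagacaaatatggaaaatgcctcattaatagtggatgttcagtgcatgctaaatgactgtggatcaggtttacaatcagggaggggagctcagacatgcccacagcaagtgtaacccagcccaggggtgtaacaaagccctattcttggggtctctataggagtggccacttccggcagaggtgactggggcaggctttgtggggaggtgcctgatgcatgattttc
KRT10 (chr17:40822615-40822864, minus strand): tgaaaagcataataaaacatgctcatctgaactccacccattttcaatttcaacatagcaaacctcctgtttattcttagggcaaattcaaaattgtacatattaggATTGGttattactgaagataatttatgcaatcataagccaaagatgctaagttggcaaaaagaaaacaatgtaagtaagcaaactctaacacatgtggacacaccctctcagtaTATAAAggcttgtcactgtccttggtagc
LMNA (chr1:156082323-156082572, plus strand): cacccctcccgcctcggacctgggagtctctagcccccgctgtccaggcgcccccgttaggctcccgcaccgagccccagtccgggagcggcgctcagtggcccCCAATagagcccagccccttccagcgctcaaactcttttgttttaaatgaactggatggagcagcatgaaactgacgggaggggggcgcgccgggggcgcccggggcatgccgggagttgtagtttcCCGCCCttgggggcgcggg
NES (chr1:156677408-156677657, minus strand): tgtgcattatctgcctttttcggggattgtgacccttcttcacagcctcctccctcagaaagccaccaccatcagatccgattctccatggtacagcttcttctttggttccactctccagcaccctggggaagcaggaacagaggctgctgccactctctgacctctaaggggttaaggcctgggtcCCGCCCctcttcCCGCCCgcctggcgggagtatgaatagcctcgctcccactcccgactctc

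The capitals in KRT10 are a CCAAT box on the reverse strand, 143 to 139 bases before the start, and a TATA box 29 to 24 bases before it. LMNA has a CCAAT box (146 to 142 bases before) and a GC box on the reverse strand (19 to 14 bases before). NES has GC boxes on the reverse strand at 62 to 57 and 50 to 45 bases before the start. VIM had 1 GC box and LMNB1, like KRT8, no match. None of the 6 windows held the AP-1 motif or the CArG box, which are found in 6.59% and 1.16% of the 34943 promoters searched. The GC box is found in 42.5% of them, the CCAAT box in 11194 promoters and the TATA box in 10.8%. The GC box was in the raised genes VIM and LMNA and in the lowered gene NES. The CCAAT box (KRT10, LMNA) and the TATA box (KRT10) were in raised genes. The raised genes KRT8 and VIM had neither, nor did the 2 lowered genes with a window, NES and LMNB1. Whether any motif goes with the direction of change was not tested. A match describes letters only, and a missing match says nothing of binding.

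Among other intermediate filament genes, 3 of 12 tested were raised and 7 lowered, while 2 did not pass, with a median log2 fold change of −0.66 (−1.19 by library size and −0.12 without the length trend). SYNM, which encodes synemin, a large chain that joins vimentin or desmin filaments, had 59.4 ± 3.87 CPM in Control and 3.21 ± 0.478 CPM in MGO (log2 fold change −4.21, SE 0.11, adjusted p = 2.31e-11). LMNB2, the other B-type lamin, fell as LMNB1 did, from 326 ± 12.9 to 143 ± 6.55 CPM (log2 fold change −1.19, SE 0.06). Without the length trend it stood at −0.37, against −0.69 for LMNB1. NEFM and NEFH, the medium and heavy neurofilament chains that join NEFL, had log2 fold changes of −1.39 and −1.05 at 1.46 and 1.54 CPM in Control. INA, which encodes the neurofilament partner α-internexin, fell by 0.46 on the log2 scale, from 41.6 CPM in Control to 30.2 CPM in MGO (SE 0.06). All 4 neurofilament-type genes (NEFL, NEFM, NEFH and INA) were thus lower after MGO. Their transcripts fall in the class of 2500 to 4000 nt, where 51.5% of genes with a mean of at least 1 CPM were lowered. With the length trend removed NEFL stood at −0.67, NEFM at −1.29, NEFH at −0.54 and INA at −0.18. PRPH, the type III filament of peripheral neurons, went the other way, from 1.32 ± 0.0830 to 2.76 ± 0.386 CPM (log2 fold change 1.06, SE 0.13). IFFO2 fell (−0.87) and turned to 0.35 with the length trend removed. BFSP1, a lens filament gene, was at 0.21 (adjusted p = 0.0352) and was −0.31 by library size and −0.05 once length was accounted for. IFFO1 did not pass (0.16, adjusted p = 0.0721; −0.37 under library size alone).

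Of 15 tested genes for the linkers that tie filaments to desmosomes, actin and microtubules, 3 were raised and 12 lowered. Their median was −1.96 (−0.60 with the length trend removed). Most of these transcripts are long, with a median of 6041.5 nt. Among all genes with a mean of at least 1 CPM, 75.9% of those of 4000 to 6000 nt were lowered, and 87.6% of longer ones. PLEC, which encodes the giant linker plectin, had 57.7 ± 7.94 CPM in Control and 2.60 ± 0.467 CPM in MGO (log2 fold change −4.47, SE 0.14, adjusted p = 7.44e-11), and MACF1, the actin and microtubule crosslinker, from 355 ± 48.9 to 27.4 ± 4.67 CPM (−3.70, SE 0.14). Their transcripts are among the longest, with 14712.5 and 18339.5 nt, and their changes were −2.34 and −1.45 with the length trend removed. Of the desmosomal plaque genes, PKP3 (plakophilin 3) was raised by 0.82 (SE 0.09) and JUP (plakoglobin) by 0.37 (SE 0.09). JUP stood at −0.16 under library size alone. DSP (−2.23), PKP2 (−0.71) and PKP4 (−1.80), named after their values were seen, were lowered. With the length trend removed, DSP stood at −0.58, PKP2 at −0.03 and PKP4 at −1.16.

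Of 15 tested genes of the lamina and inner nuclear membrane, 4 were raised and 8 lowered, while 3 did not pass (median −0.51). Under TMM scaling the rises were largest for EMD, which encodes emerin (91.3 ± 1.62 to 320 ± 29.5 CPM; log2 fold change 1.81, SE 0.07), and BANF1, the DNA-bridging factor that emerin-type proteins bind (1.36, SE 0.07). SYNE2 and SYNE1, the genes of the giant nesprins that couple the nucleus to the cytoskeleton, had log2 fold changes of −3.80 and −3.08. EMD and BANF1 have short transcripts (1172.5 and 1040.5 nt), and with the length trend removed they stood at 1.09 and 0.59, SYNE2 at −1.63 and SYNE1 at −2.16. TOR1AIP2, named after its values were seen, was raised by 0.17 and then stood above EMD and BANF1, at 1.56. Of 5 genes for enzymes that farnesylate and trim prelamins, 3 were raised and 1 lowered (median 0.63, or 0.10 by library size and 0.27 without the length trend). RCE1, the CAAX protease, rose from 15.6 ± 0.758 to 50.8 ± 3.91 CPM (1.71, SE 0.08) and FNTB, a farnesyltransferase subunit, by 0.94 (SE 0.07). ICMT, the carboxyl methyltransferase, fell by 0.58 on the log2 scale and stood at 0.26 with the length trend removed. ZMPSTE24, the protease that matures lamin A, did not pass the threshold (−0.06, adjusted p = 0.472; named after its value was seen).

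Of 10 kinase genes (with the cyclin CCNB1) that act on filaments, 5 were raised and 4 lowered, with a median of 0.20 (−0.33 by library size). The mitotic genes AURKB (1.56, SE 0.07) and CCNB1 (1.03, SE 0.06) were raised, and PRKCA (−2.50, SE 0.08) and ROCK2 (−2.50, SE 0.11) were lowered. Without the length trend PRKCA stood at −0.85 and ROCK2 at −1.24. Of 8 protease and turnover genes, 4 were raised and 3 lowered (median 0.31, or −0.21 under library size alone). STUB1, which encodes a chaperone-linked ubiquitin ligase, rose from 52.5 ± 2.80 to 120.5 ± 16.5 CPM (1.1985, SE 0.09). CAPN2, a calpain subunit, fell by 0.33 and stood at 0.03 with the length trend removed.

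**Figure D5:**
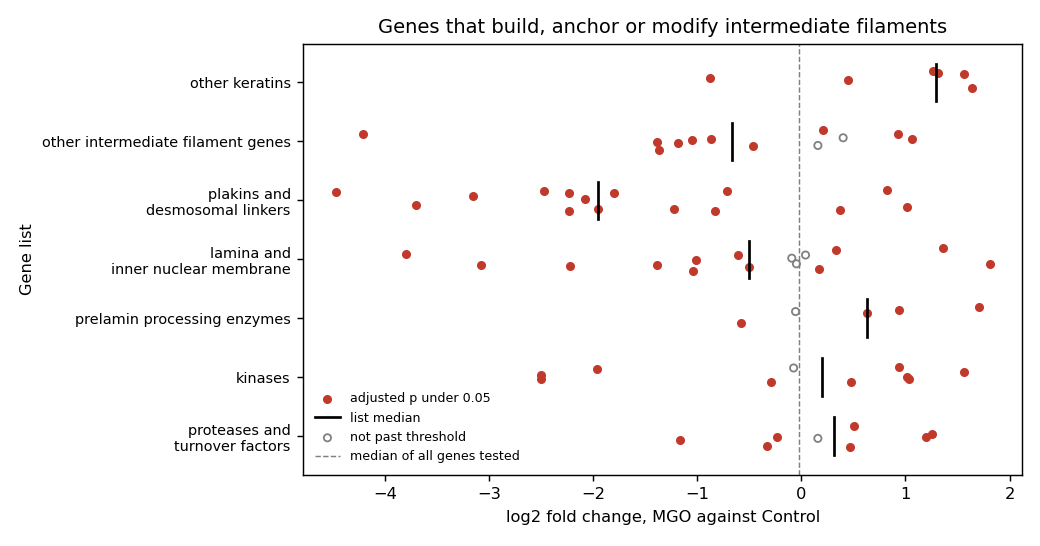
Log2 fold changes (x axis) of the tested genes in 7 lists of genes that build, anchor or modify intermediate filaments, red when past an adjusted p of 0.05 and open when not, with the list medians as black bars and the median of all genes tested as a dashed line. The median lies at −1.96 for the linkers and at 1.29 for the other keratins.

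Of 7 epithelial markers tested, 3 were raised and 3 lowered (median 0.10, or −0.42 under library size alone), with EPCAM at 0.63 and CLDN3 at 1.08, and ESRP1 at −0.85 and CDH1, the gene of E-cadherin, at −1.56. Their summed level was 148 to 156 CPM in Control and 196 to 208 CPM in MGO. Most of this sum was EPCAM (means of 100.3 and 155.2 CPM). EPCAM was 0.10 under library size alone, where it did not pass (adjusted p = 0.164). With the length trend removed EPCAM stood at 0.14, CLDN3 at 0.40, ESRP1 at −0.36 and CDH1 at −1.25. Of 5 neuronal markers tested, 1 was raised and 2 lowered, summing to 38.7 to 42.2 CPM in Control and 21.3 to 22.3 CPM in MGO. Most of the Control sum was MAP2, which averaged 26.2 CPM there and 5.67 CPM in MGO. TUBB3, a neuronal tubulin gene, was at 1.11, SNAP25 at −0.65, and MAP2, a gene for a dendritic microtubule-binding protein, at −2.21. Without the length trend TUBB3 stood at 0.26 and did not pass (adjusted p = 0.0699 in edgeR's test), while SNAP25 stood at −0.93 and MAP2 at −1.21. The median of the neuronal markers was 0.15, and −0.38 under library size alone. Of 3 fibroblast markers tested, 1 was raised and 1, COL1A1 (−1.70), lowered. Their summed level was 14.3 to 15.5 CPM in Control and 5.24 to 5.79 CPM in MGO, most of it COL1A1 (means of 13.95 and 4.30 CPM). COL1A1 stood at −0.37 with the length trend removed. All 3 blood cell markers tested (LYZ, SPI1 and CD68) were raised, as the keratins were, at a summed level of 1.02 CPM or less in any library. LYZ had 74 counts in MGO replicate 1 and 5 to 12 in the other libraries, and the groups overlapped in SPI1. Without the length trend neither LYZ (adjusted p = 0.0701) nor SPI1 (adjusted p = 0.515) passed edgeR's test, while CD68 did. PTPRC and CD3E had too few counts to test. The part of these markers in the changes of the filament genes was not tested.

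For each of the 10 genes, the 3 genes of most similar pattern were sought among the 9562 symbols that averaged 10 CPM or more, by Euclidean distance between log2 CPM centred on each gene's own mean over the 6 libraries. For KRT8 these were EXOSC1, POLR3K and DDX49 (distances 0.038 to 0.041), and for KRT18 they were RPL8, ZNRD2 and CDK9 (0.043 to 0.052). For VIM they were ATP1B3, PDIA5 and HTATIP2, for NES they were PGPEP1, DGKD and CYB5RL, for LMNA they were NELFA, RAB1B and SGTA, and for LMNB1 they were LRRFIP2, LZIC and USP4. With 2 groups of 3 libraries these distances mostly reflect a similar fold change.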

How the data were processed

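The authors deposited 1 table of raw counts per gene with 1 column per library, and each column is named in its sample's label. Per the submitters' processing notes, the tools include the aligner STAR 2.7.0a, the read counter featureCounts 2.0.6 and, before them, Trim Galore 0.6.10, with genome build hg38. No source used here names the annotation, the strand setting or the handling of reads with several matches. The names of the MGO libraries hold a number whose meaning is likewise unexplained.

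Counts of all genes were tested with edgeR 4.0.16 under R 4.3.3 (TMM scaling, low counts removed by filterByExpr, quasi-likelihood test of MGO against Control, Benjamini-Hochberg adjustment over 23109 genes, threshold 0.05), and SE is the absolute log2 fold change over the square root of F. Without spike-in RNA every change is relative to the scaling. No library looked like a second deposit of another, chi-square per degree of freedom between replicates being 3.77 or more. Coordinates and transcript lengths (median over basic transcripts) are from GENCODE 29 on GRCh38, the assembly of hg38, which matched 56720 of 63643 rows. The length trend was removed as an offset from a smoothing spline (6 degrees of freedom) on log2 length. For each library the spline was fitted to the deviation of log2 CPM from each gene's mean over all libraries. The test was also run on simulated counts of 22470 genes, 200 of them changed. It recovered 34% of 1.25-fold, 90% of 1.5-fold and 100% of 2-fold changes, with 12 false calls. The simulation held neither the broad change nor the length trend of these data, so it checks neither the scaling nor the length removal.

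The genes and lists were chosen with earlier results of these data known. Named genes are the 10 genes, other filament genes and pseudogenes with a mean of at least 1 CPM, and from each other list at that level the called genes with the 2 highest and the 2 lowest fold changes. A few genes this rule would name are not reported here. Alternatives were other scalings and filters, DESeq2 1.42.0, limma-voom (limma 3.58.1), a replicate block, robust dispersions, a 1.2-fold minimum in the test, the length trend, pseudogene counts and leaving out each library.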

Additional observations from a re-analysis of the deposited data

How the results depend on the processing

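Each of the 10 genes kept its direction and its call in all 18 alternatives, with a highest adjusted p of 0.00104 (LMNA under library size alone, edgeR). Leaving out each library moved KRT8 between 1.54 and 1.64, NES between −2.22 and −2.20 and LMNB1 between −0.54 and −0.45. The 4 within-library ratios kept their direction without each library and with pseudogene counts added. The number of raised genes fell from 8964 to 5673 under library size alone. Deviations of same-numbered libraries from their group means correlated at −0.19, −0.35 and 0.01 over 9423 genes, and those of differently numbered ones at up to 0.29. With only 3 libraries centred in each group, this cannot show whether same-numbered libraries shared a culture or day. The labels do not say. With the replicate block, KRT8 stood at 1.58 and NES at −2.21, and all 10 calls were kept.

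Of 41 other named genes in 697 combinations with an alternative, 673 kept direction and call, 12 lost the call, 3 gained it and 9 turned. Under library size alone KRT80 turned to −0.0817, BFSP1 to −0.31, IFFO1 to −0.37 and JUP to −0.16, and the list medians of kinases to −0.33, turnover genes to −0.21, epithelial markers to −0.42 and neuronal markers to −0.38. With the length trend removed BFSP1 turned to −0.0511, IFFO2 to 0.35, ICMT to 0.26, CAPN2 to 0.0289 and KRT8P12 to −0.15, and the medians of fibroblast markers to 0.73, neuronal markers to −0.0948 and embryonic kidney markers to 0.38, the last at 0.0014 under upper quartile scaling. In edgeR's test the adjusted p of BFSP1 was 0.0944 when MGO replicate 3 was left out, 0.168 without Control replicate 2 and 0.0806 without Control replicate 3.

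The list medians under other scalings and without the length trend were added after seeing the data.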
